A study of Mus musculus with 2 samples.

Results

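The 10 genes described here carry glucose into the cell and turn it into lactate. They are the glucose transporter gene *Slc2a1* and the glycolysis genes *Hk2*, *Pfkl*, *Pfkp*, *Aldoa*, *Gapdh*, *Pgk1*, *Eno1*, *Pkm* and *Ldha*. They were listed by name, with earlier results of these data already known. All 10 had rows in both libraries, out of 16665 genes listed in either library, 16061 in the control and 15786 in *Taf4*IEC cells. Below, "the 10 genes" means these 10.

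The data are counts of unique molecular identifiers (UMIs, tags that mark single captured transcripts) per gene and cell, from 1 control and 1 *Taf4*IEC library. Both came from enteroids, organoids grown from crypts of the ileum of C57Bl6/129sv mice aged 4 months, passaged at least 5 times. *Taf4*IEC stands for *Taf4*lox/lox::VilCreERT2, in which tamoxifen switches on a Cre recombinase driven by the villin promoter, active in intestinal epithelium. These enteroids received 1 µM 4-hydroxytamoxifen (4-OHT) for 3 days, from day 5 to day 8 of culture. The methods of the study give the control as *Taf4*lox/lox enteroids that received 4-OHT too, whereas the sample label gives wild type and ethanol, so the treatment of the control is unclear. How many mice each culture came from is not given in the sources used here.

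Libraries were made with 10X Genomics 3′ chemistry from sorted live cells. The control held 2563 cells with 39947009 UMIs and the *Taf4*IEC library 1811 cells with 24990128 UMIs, with a median of 16749 and 2254 UMIs per cell, and they shared 2 cell barcodes. With 1 library per condition no test between conditions was possible. Levels are UMIs of a gene per 10000 UMIs of all genes, summed over cells, and log2 ratios between conditions are *Taf4*IEC over control, so that values above 0 are higher in *Taf4*IEC cells. A fold of 1.5 with at least 200 UMIs over the cells compared was taken as a size worth naming. All intervals are 95% intervals that cover counting error only. *Taf4* itself was not lower in the library labelled *Taf4*IEC, with 278 UMIs (0.0696 per 10000) in the control and 236 (0.0944 per 10000) in the other. Counts per gene do not tell recombined from intact transcripts, so every direction below is between libraries as labelled. The epithelial genes *Epcam* (12.6 and 11.6 per 10000), *Cdh1* (0.889 and 1.14) and *Vil1* (1.06 and 2.09) were present. Of 16 markers of blood, stromal and endothelial cells, 4 in the control and 5 in *Taf4*IEC cells had any UMI, at 0.00826 and 0.0072 per 10000 in sum, and *Ptprc*, the pan-leukocyte marker, had 0 in both.

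Glycolysis splits glucose into pyruvate in the cytosol and yields ATP without oxygen. Cells that divide, or that lack oxygen, often send the pyruvate on to lactate, whereas others pass it to the mitochondria. In the small intestine, crypt cells and villus enterocytes handle glucose differently, since enterocytes take sugar from the lumen and release part of it to the blood. Several steps are catalysed by alternative isoenzymes, of which pyruvate kinase L, like the transporter GLUT2, marks liver and absorptive gut cells.

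The hypoxia-inducible factor HIF, a known activator of glycolysis genes, binds DNA at a short core, ACGTG or GCGTG. Both cores were searched on both strands in the 250 bases before each annotated start (RefSeq, build GRCm38.p6, the mm10 assembly). All 10 genes matched, with 16 windows among them. A core was found in at least 1 window of all 10 genes and in 14 of the 16 windows, beside 41.5% of 26994 genes and 38.6% of 32817 windows over the whole table. Some windows of *Aldoa* and some of *Eno1* overlap and share cores, so the same site was counted more than once. Genes with more windows have more places for a match, which was not allowed for. Windows of the 10 genes had a median GC content of 64.6%, against 52.4% for all windows, and the part of base composition in these counts was not tested. The E-box CACGTG, a site bound by MYC that contains ACGTG, was found in 1 of the 10 genes (*Ldha*) and in 6.86% of all genes. A match is a run of letters and no evidence of binding. Windows of 4 genes are shown as examples from the start to the end of the pathway, namely uptake (*Slc2a1*), the first phosphorylation (*Hk2*), the first ATP-forming step (*Pgk1*) and lactate formation (*Ldha*). Capitals mark the HIF cores on either strand.
Slc2a1, chr4:119108495-119108744, plus strand: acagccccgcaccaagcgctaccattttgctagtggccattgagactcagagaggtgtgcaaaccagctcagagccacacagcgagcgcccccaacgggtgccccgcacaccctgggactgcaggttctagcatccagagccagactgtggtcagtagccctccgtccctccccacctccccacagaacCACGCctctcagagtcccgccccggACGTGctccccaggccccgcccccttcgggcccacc
Hk2, chr6:82774455-82774704, minus strand: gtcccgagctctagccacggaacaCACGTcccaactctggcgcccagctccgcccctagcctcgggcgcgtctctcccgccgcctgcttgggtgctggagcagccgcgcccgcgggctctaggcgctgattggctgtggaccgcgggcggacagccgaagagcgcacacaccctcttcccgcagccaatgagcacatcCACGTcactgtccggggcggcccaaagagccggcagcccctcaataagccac
Pgk1, chrX:106186850-106187099, plus strand: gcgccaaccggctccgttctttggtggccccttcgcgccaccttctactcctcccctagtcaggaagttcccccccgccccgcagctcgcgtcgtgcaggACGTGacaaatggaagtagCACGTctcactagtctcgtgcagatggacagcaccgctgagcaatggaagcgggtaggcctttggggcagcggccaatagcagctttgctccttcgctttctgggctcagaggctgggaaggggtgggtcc
Ldha, chr7:46845554-46845803, plus strand: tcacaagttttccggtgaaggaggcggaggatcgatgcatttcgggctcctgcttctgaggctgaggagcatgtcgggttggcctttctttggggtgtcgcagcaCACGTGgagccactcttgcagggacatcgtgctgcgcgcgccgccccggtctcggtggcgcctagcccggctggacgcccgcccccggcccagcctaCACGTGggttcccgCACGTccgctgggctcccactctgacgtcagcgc

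*Ldha* had 2 windows, and the one not shown held 1 GCGTG core and no E-box. The *Ldha* window shown held 5 matches, of which 4 belong to its 2 E-boxes, since each E-box reads ACGTG on both strands. *Hk2* and *Pgk1* held 2 ACGTG cores each, and *Slc2a1* held 1 of each core. The *Gapdh* window, not shown, held 2 GCGTG cores.

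Over all cells the 10 genes took 1.18% of the control UMIs (472009) and 1.41% of the *Taf4*IEC UMIs (351833). *Hk2* was the only one past 1.5-fold, and the summed difference was mostly that of *Gapdh*, which alone made up 34.2% of the UMIs of the 10 genes in the control and 41.1% in *Taf4*IEC cells. The summed level was 118 per 10000 in the control and 141 in *Taf4*IEC cells, a log2 ratio of 0.25 (0.25 to 0.26). Without *Gapdh* the levels were 77.7 and 83.0 and the ratio 0.09. When the *Taf4*IEC levels of each class of cells (described below) were weighted with the class shares of the control UMIs, the summed ratio was 0.03. Transcripts that mark low RNA quality (those of the mitochondrial genome, *Gm42418*, *AY036118*, *Malat1* and *Lars2*) took 815 per 10000 in the control and 939 in *Taf4*IEC cells, and their part in the ratios was not tested.

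Of the 10 genes, 1 was at least 1.5-fold higher in *Taf4*IEC cells and 0 at least 1.5-fold lower, whereas among the 10002 genes that reached 200 UMIs in the sum of the libraries 16.0% were higher and 7.47% lower by this fold. All 10 passed this minimum. Their median log2 ratio was 0.07, below the median of 0.16 over all genes. The total against which levels are given held 41.7% of mitochondrial, ribosomal protein, *Gm42418* and *AY036118* transcripts in the control and 33.8% in *Taf4*IEC cells. Leaving these out shifted every log2 ratio by -0.18, so that the median over all genes became -0.02.

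*Slc2a1* (chr4:119108745-119137330) encodes GLUT1, the basal glucose transporter. Its 2091 control UMIs gave 0.523 per 10000 (0.501 to 0.546), and its 1162 *Taf4*IEC UMIs 0.465 (0.439 to 0.493). Its log2 ratio of -0.17 (-0.28 to -0.07) stayed below 0 in 7 of 8 alternatives and was 0.02 as a mean of per-cell values.

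*Hk2* (chr6:82725025-82774454) encodes hexokinase 2, which traps glucose in the cell as glucose 6-phosphate. It had 1693 UMIs in the control, 0.424 per 10000, and 1595 in *Taf4*IEC cells, 0.638 per 10000, a log2 ratio of 0.59 (0.49 to 0.69). The sign held in all 8 alternatives, but the value lay under 1.5-fold in 5 of them, from 0.28 as a mean of per-cell values to 0.54 in cells thinned to 2000 UMIs.

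*Pfkl* and *Pfkp* encode the liver and platelet forms of phosphofructokinase, the main controlled step of the pathway. *Pfkl* (chr10:77986947-78009807) was at 1.72 per 10000 in the control and 1.67 in *Taf4*IEC cells, a log2 ratio of -0.05 (-0.10 to 0.01). *Pfkp* (chr13:6579874-6649060) was at 1.58 and 1.54 per 10000, a log2 ratio of -0.03 (-0.09 to 0.02). For both genes the interval held 0, while the value was below 0 in all 8 alternatives, down to -0.23 for *Pfkl* without mitochondrial and ribosomal genes in the total and to -0.38 for *Pfkp* with the class shares of the control.

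*Aldoa* (chr7:126795234-126800994) encodes aldolase A, which cleaves the phosphorylated sugar. It was at 20.4 per 10000 in the control and 21.5 in *Taf4*IEC cells, a log2 ratio of 0.08 that turned to -0.10 without mitochondrial and ribosomal genes in the total. *Gapdh* (chr6:125161852-125166467), the dehydrogenase that forms NADH, was at 40.5 per 10000 (161624 UMIs) in the control and 57.8 (144527 UMIs) in *Taf4*IEC cells, a log2 ratio of 0.52 (0.51 to 0.53) that stayed above 0 in all alternatives and was lowest, 0.15, as a mean of per-cell values. *Pgk1* (chrX:106187100-106203699), phosphoglycerate kinase, was at 19.5 and 19.6 per 10000, a log2 ratio of 0.01 (-0.01 to 0.02). *Eno1* (chr4:150236708-150248879), the enolase of most tissues, was at 5.53 and 7.05 per 10000, a log2 ratio of 0.35 (0.32 to 0.38). The ratio of *Eno1* kept its sign in all 8 alternatives and that of *Pgk1*, which was within counting error of 0, did not.

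*Pkm* (chr9:59656576-59679372), the pyruvate kinase of muscle and dividing cells, was at 12.1 per 10000 in the control and 12.7 in *Taf4*IEC cells, a log2 ratio of 0.07 that became -0.11 with the reduced total. *Ldha* (chr7:46842274-46855627), the lactate dehydrogenase subunit that favours lactate formation, was at 16.0 and 17.9 per 10000, a log2 ratio of 0.16 that became -0.02 with the same total. No direction is therefore given for *Aldoa*, *Pgk1*, *Pkm* or *Ldha* over all cells.

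**Figure D1:**
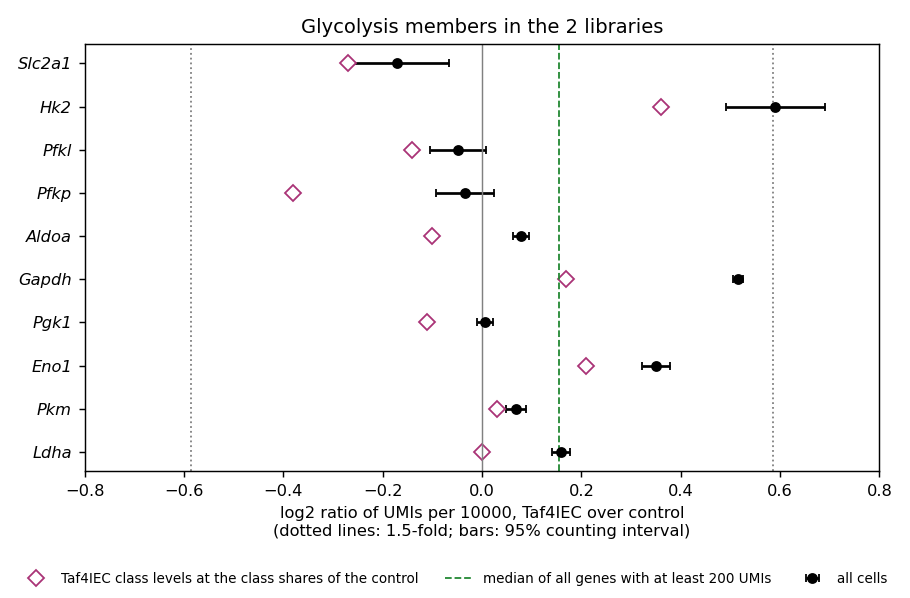
Log2 ratio of UMIs per 10000 (x axis), *Taf4*IEC over control, for each of the 10 genes (y axis). Black points are all cells with 95% counting intervals, open diamonds the *Taf4*IEC class levels weighted with the class shares of the control, the dashed line the median of all genes (0.16) and dotted lines 1.5-fold. *Hk2* alone touches 1.5-fold, and *Gapdh* moves from 0.52 to 0.17 at the class shares of the control.

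Each library was clustered alone, with the pathway genes left out of the variable genes, and clusters were named from marker lists. Stem-like clusters held 1127 control and 427 *Taf4*IEC cells, enterocyte-like ones 231 and 173, Paneth/goblet-like ones 274 and 181, and enteroendocrine-like ones 246 and 206. A tuft-like cluster of 15 cells was found in *Taf4*IEC only. One deep cluster in each library, of 237 and 197 cells, met too few markers to be named, and *Tmem237* led both. A further 448 and 612 cells lay in shallow unnamed clusters with a median of 1220.5 and 639.5 UMIs. Different clusters made up the stem-like class in the 2 libraries, with 5 clusters in the control, of which those of 307, 256 and 244 cells were led by replication and mitosis genes such as *Hist1h1b*, *Mcm4* and *Cenpf*, and 3 in *Taf4*IEC cells, led by *Cdc20* (217 cells), *AC167229.1* (177 cells) and *Pclaf* (33 cells).

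The summed level of the 10 genes was highest in enterocyte-like cells of both libraries. It was 225.5 per 10000 in control and 232 in *Taf4*IEC enterocyte-like cells, 153.9 and 185 in the unnamed deep cluster, 110.3 and 122 in enteroendocrine-like, 99.2 and 95.4 in stem-like and 88.3 and 91.3 in Paneth/goblet-like cells. The order of these 5 class values was the same in both libraries. By cluster, the *Taf4*IEC Paneth/goblet-like ones were at 111 (96 cells) and 88.5 (85 cells) and the stem-like ones between 79.2 and 100.7, so these 2 classes overlapped. Enterocyte-like cells were 2.27-fold above stem-like cells in the control (log2 1.18, 1.17 to 1.20) and 2.43-fold in *Taf4*IEC cells (log2 1.28, 1.27 to 1.29). Without *Gapdh* these were 1.61-fold and 1.67-fold. The direction held in all 14 alternatives in each library, from 0.69 to 1.59 and from 0.74 to 1.59 on the log2 scale.

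**Figure D2:**
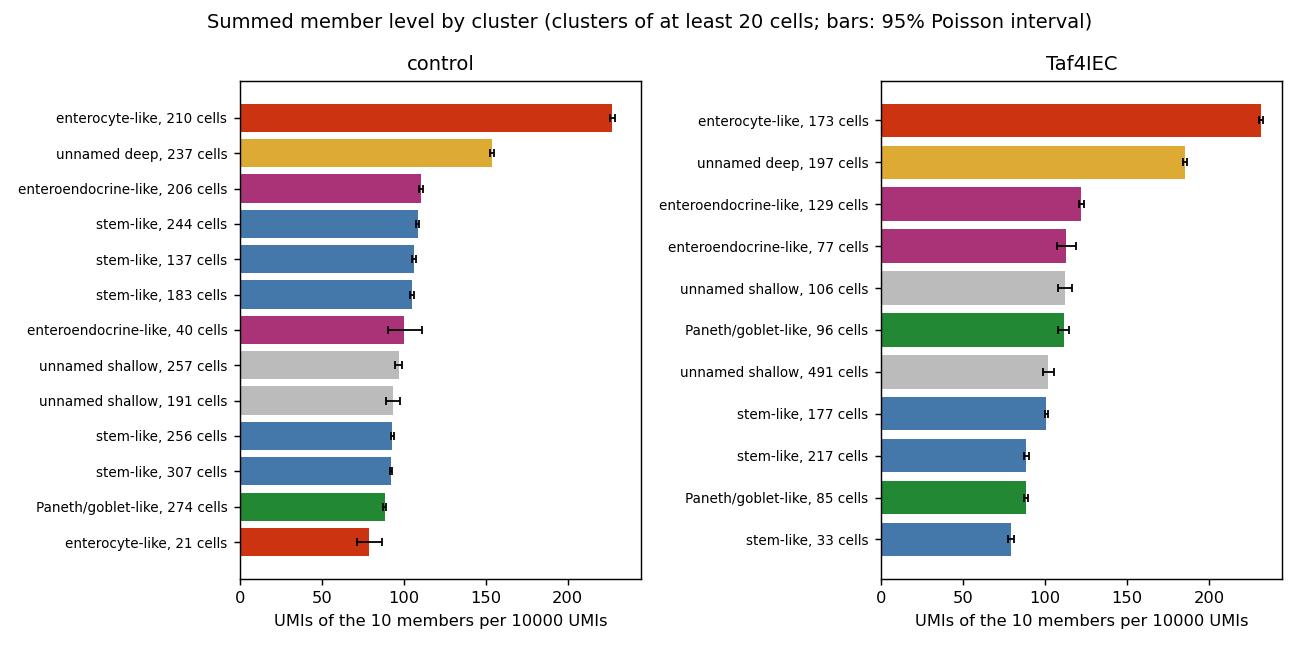
Summed UMIs of the 10 genes per 10000 UMIs (x axis) in each cluster of at least 20 cells (y axis, with class and number of cells), control on the left and *Taf4*IEC on the right, with 95% Poisson intervals. The enterocyte-like cluster of 210 cells at 227 and that of 173 cells at 232 lead, followed in both libraries by the unnamed deep cluster.

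The 5 stem-like control clusters lay between 92.2 and 108.6 per 10000, and the 3 *Taf4*IEC ones between 79.2 and 100.7, so that each was below the unnamed deep cluster of its library. A second enterocyte-like control cluster of 21 cells, led by *Fabp6* with a median of 2423 UMIs, was at 78.7 (71.3 to 86.7), far below the other one. Among cells of at least 2000 UMIs, the lower and upper quartiles over control enterocyte-like cells were 185 and 263 per 10000 and over stem-like cells 79.1 and 120.1. In the *Taf4*IEC library they were 188 and 263, and 66.1 and 112. The ranges between the quartiles of the 2 classes did not overlap in either library.

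Of the 10 genes, 6 were at least 1.5-fold higher and 0 at least 1.5-fold lower in enterocyte-like than in stem-like cells of the control. Over the 7780 genes tested there, 20.2% were higher and 42.4% lower. In the *Taf4*IEC library the counts were again 6 and 0, beside 18.8% and 43.2% of 5925 genes. The genes were not all the same, since *Slc2a1* was counted in the control only and *Pgk1* in *Taf4*IEC cells only. The median log2 difference of the 10 genes was 0.86 in the control and 0.70 in *Taf4*IEC cells, and that of all genes -0.37 and -0.41.

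*Gapdh* and *Pfkp* differed most between these classes. *Gapdh* was at 111.6 per 10000 in enterocyte-like and 28.5 in stem-like control cells, and at 120.5 and 28.8 in *Taf4*IEC cells, 3.92-fold and 4.18-fold. *Pfkp* was at 3.82 and 1.16 per 10000 in the control and at 3.03 and 0.703 in *Taf4*IEC cells, 3.28-fold and 4.30-fold. *Aldoa* was at 37.2 and 16.4 in the control and at 32.2 and 15.9 in *Taf4*IEC cells. *Ldha* (1.80-fold and 2.01-fold) and *Eno1* (1.82-fold and 1.76-fold) were also higher in enterocyte-like cells. The upper part of the pathway took 2 courses, since *Slc2a1* was 2.16-fold higher in control enterocyte-like cells but 1.35-fold higher in *Taf4*IEC ones, while the *Hk2* intervals held 0 in both libraries (log2 0.21, -0.06 to 0.47, and -0.13, -0.41 to 0.15). *Pkm* alone was lower in enterocyte-like cells by an interval that left 0 out, with log2 differences of -0.16 and -0.14.

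*Hk2* and *Pkm* were highest in enteroendocrine-like cells, the hormone-secreting cells. *Hk2* was at 1.88 per 10000 there in the control and 2.51 in *Taf4*IEC cells, 6.48-fold and 6.78-fold above stem-like cells, and between 0.29 and 0.682 in the stem-like, enterocyte-like and Paneth/goblet-like classes. *Pkm* was at 15.2 and 19.4 in enteroendocrine-like cells and between 10.5 and 13.8 in those 3 classes. *Slc2a1* and *Pfkl* had no such common class, since *Slc2a1* was highest in enterocyte-like cells of the control (0.96) and in the unnamed deep cluster of the *Taf4*IEC library (0.626), and *Pfkl* in enterocyte-like (2.25) and enteroendocrine-like cells (2.32). *Pgk1* was highest in the unnamed deep cluster, at 27.1 and 28.4 per 10000, and *Ldha* was second highest there, at 19.0 and 23.9. In that cluster the stem marker *Lgr5* was at 1.29 in the control and 0.434 in *Taf4*IEC cells, and *Olfm4* at 1.25 and 0.0921. The summed enterocyte markers there were at 7.07 and 17.0, so the 2 clusters of this kind differed in all of these markers.

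**Figure D3:**
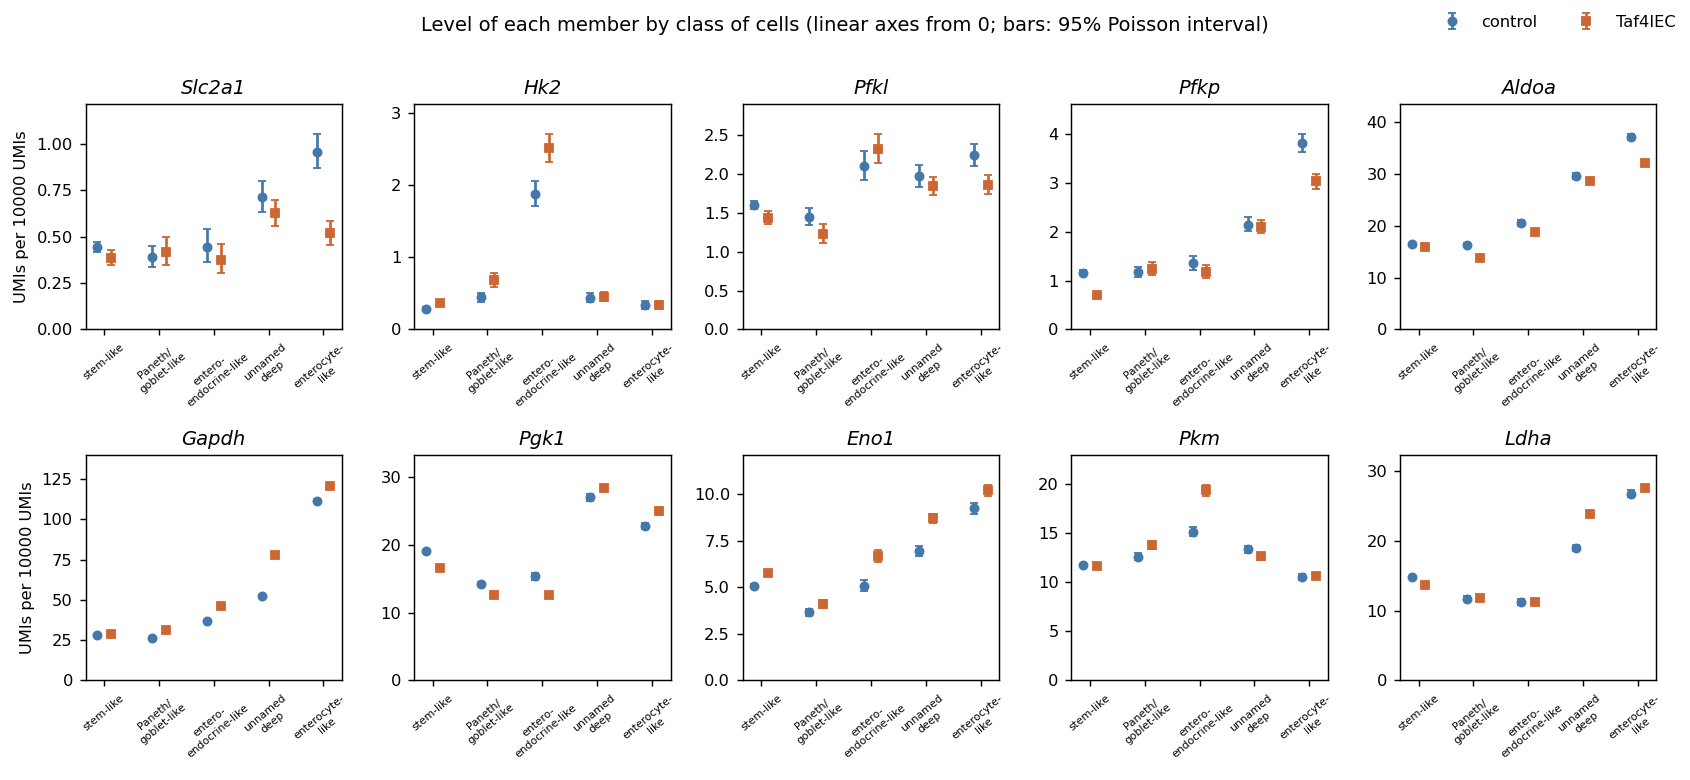
UMIs per 10000 (y axes, linear, from 0, 1 scale per gene) of each of the 10 genes in 5 classes of cells (x axes), control as circles and *Taf4*IEC as squares, with 95% Poisson intervals. *Gapdh*, *Aldoa*, *Pfkp*, *Eno1* and *Ldha* are highest in enterocyte-like cells, *Hk2* and *Pkm* in enteroendocrine-like cells and *Pgk1* in the unnamed deep cluster.

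The summed log2 ratio, *Taf4*IEC over control, was -0.06 (-0.07 to -0.04) in stem-like, 0.04 (0.03 to 0.05) in enterocyte-like, 0.05 (0.03 to 0.07) in Paneth/goblet-like, 0.14 (0.12 to 0.17) in enteroendocrine-like cells and 0.27 (0.25 to 0.28) in the unnamed deep cluster. None of the 4 values of the named classes kept its sign in all 14 alternatives, so no direction is given for them. The class shares differed, since stem-like cells made up 58.4% of control UMIs and 36.1% of *Taf4*IEC UMIs, enterocyte-like cells 11.1% and 18.8%, and the unnamed deep cluster 10.3% and 19.5%.

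In stem-like cells *Pfkp* was the 1 gene of the 10 past 1.5-fold, and it was lower. It was at 1.16 per 10000 (2714 UMIs) in the control and 0.703 (634 UMIs) in *Taf4*IEC cells, a log2 ratio of -0.73 (-0.85 to -0.60). Over all 8252 genes tested in this class, 6.12% were lower and 12.6% higher by this fold. It was lower in all 12 alternatives, from -0.40 at a resolution of 0.5 to -1.38 with markers counted from 2 times the mean level. The *Taf4*IEC stem-like class was far smaller in some of these. It held 33 cells with markers from 2 times, 67 with both libraries clustered together and 82 without regression, beside 883, 1132 and 1257 control cells. Among the other genes of the pathway in this class, *Hk1*, the housekeeping hexokinase, and *Slc16a3*, the lactate exporter MCT4, were lower (log2 -0.72 and -0.60), and *Pklr* was higher (0.68). The summed Paneth/goblet markers were at 10.6 per 10000 in control and 28.6 in *Taf4*IEC stem-like cells, those of the enterocyte at 3.07 and 2.48 and the low-quality transcripts at 789.6 and 896, and their part in these values was not tested.

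In enterocyte-like cells *Slc2a1* was the 1 gene past 1.5-fold, and it was lower as well. It was at 0.96 per 10000 (426 UMIs) in the control and 0.518 (243 UMIs) in *Taf4*IEC cells, a log2 ratio of -0.89 (-1.12 to -0.66). Among the 3956 genes tested there, 5.36% were lower and 6.14% higher by this fold. The value lay between -1.14 and -0.87 in all 12 alternatives. The summed enterocyte markers were at 155 and 190.5 per 10000 in these cells and the low-quality transcripts at 945 and 1124, and the part of these differences was not tested. The transporters with a direct role in absorption ran the other way in these cells, with *Slc5a1*, the sodium-glucose cotransporter SGLT1 of the brush border, at 5.04 and 8.24 per 10000 and *Slc2a2*, the basolateral transporter GLUT2, at 1.33 and 1.86.

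In Paneth/goblet-like cells *Hk2* was higher, at 0.444 per 10000 (211 UMIs) in the control and 0.682 (207 UMIs) in *Taf4*IEC cells, a log2 ratio of 0.62 (0.33 to 0.90). In this class 11.0% of 3882 genes were higher and 9.20% lower by 1.5-fold. The *Hk2* value was under 1.5-fold in 6 of 12 alternatives. The lowest was 0.36 with 10 components, where the *Taf4*IEC class held 676 cells in place of 181. The total without mitochondrial, ribosomal protein, *Gm42418* and *AY036118* genes was not among the 12. It moved the summed ratio of this class from 0.05 to -0.20, and the same shift puts *Hk2* under 1.5-fold. This class was 1 cluster in the control and 2 in *Taf4*IEC cells, 1 of them shallow (96 cells with a median of 960.5 UMIs). The summed Paneth/goblet markers were at 448 per 10000 in the control class and 1470.0 in the *Taf4*IEC one, and the part of this difference was not tested. In enteroendocrine-like cells none of the 10 genes passed 1.5-fold, beside 12.9% of 3372 genes higher and 4.09% lower. In the unnamed deep cluster none did either, beside 16.9% of 4115 genes higher and 8.07% lower, and *Gapdh* came nearest with 52.7 and 77.8 per 10000, a log2 ratio of 0.56.

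Several steps have isoenzyme genes, and the share of one gene in the UMIs of the set was compared between classes. For pyruvate kinase, *Pklr*, the liver and red cell form, made up 3.25% of *Pkm* and *Pklr* UMIs over all control cells and 7.71% over all *Taf4*IEC cells. The share was 1.91% and 3.05% in stem-like, 12.4% and 18.6% in enterocyte-like and 4.49% and 9.73% in enteroendocrine-like cells, so that it was higher in *Taf4*IEC cells in each of these. For the glucose transporters, *Slc2a2* made up 0.955% (0.459 to 1.75) of *Slc2a1* and *Slc2a2* UMIs in control stem-like cells and 3.88% (2.14 to 6.42) in *Taf4*IEC ones. These 2 shares rest on 10 and 14 *Slc2a2* UMIs. In enterocyte-like cells the *Slc2a2* share was 58.2% (55.1 to 61.2) and 78.2% (75.7 to 80.6). In the unnamed deep cluster it was 5.48% and 31.1%.

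For hexokinase, *Hk1* made up 53.7% of *Hk1* and *Hk2* UMIs in control enterocyte-like cells and 53.9% in *Taf4*IEC ones, but 11.3% and 10.6% in enteroendocrine-like cells. In these 2 classes the intervals of the libraries overlapped, whereas in stem-like cells the share was 25.8% (23.0 to 28.8) and 14.1% (10.8 to 18.0). For phosphofructokinase, *Pfkp* made up 62.3% of the UMIs of *Pfkl*, *Pfkm* and *Pfkp* in control enterocyte-like cells and 61.1% in *Taf4*IEC ones, and 40.8% and 31.6% in stem-like cells. For lactate dehydrogenase, *Ldhb*, whose subunit favours lactate use, had 56 of 63915 UMIs of *Ldha* and *Ldhb* in the control and 195 of 44804 in *Taf4*IEC cells. Of these, 47 and 149 were in stem-like cells, where the share was 0.136% and 1.19%, so *Ldha* made up nearly all lactate dehydrogenase transcripts in both libraries.

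**Figure D4:**
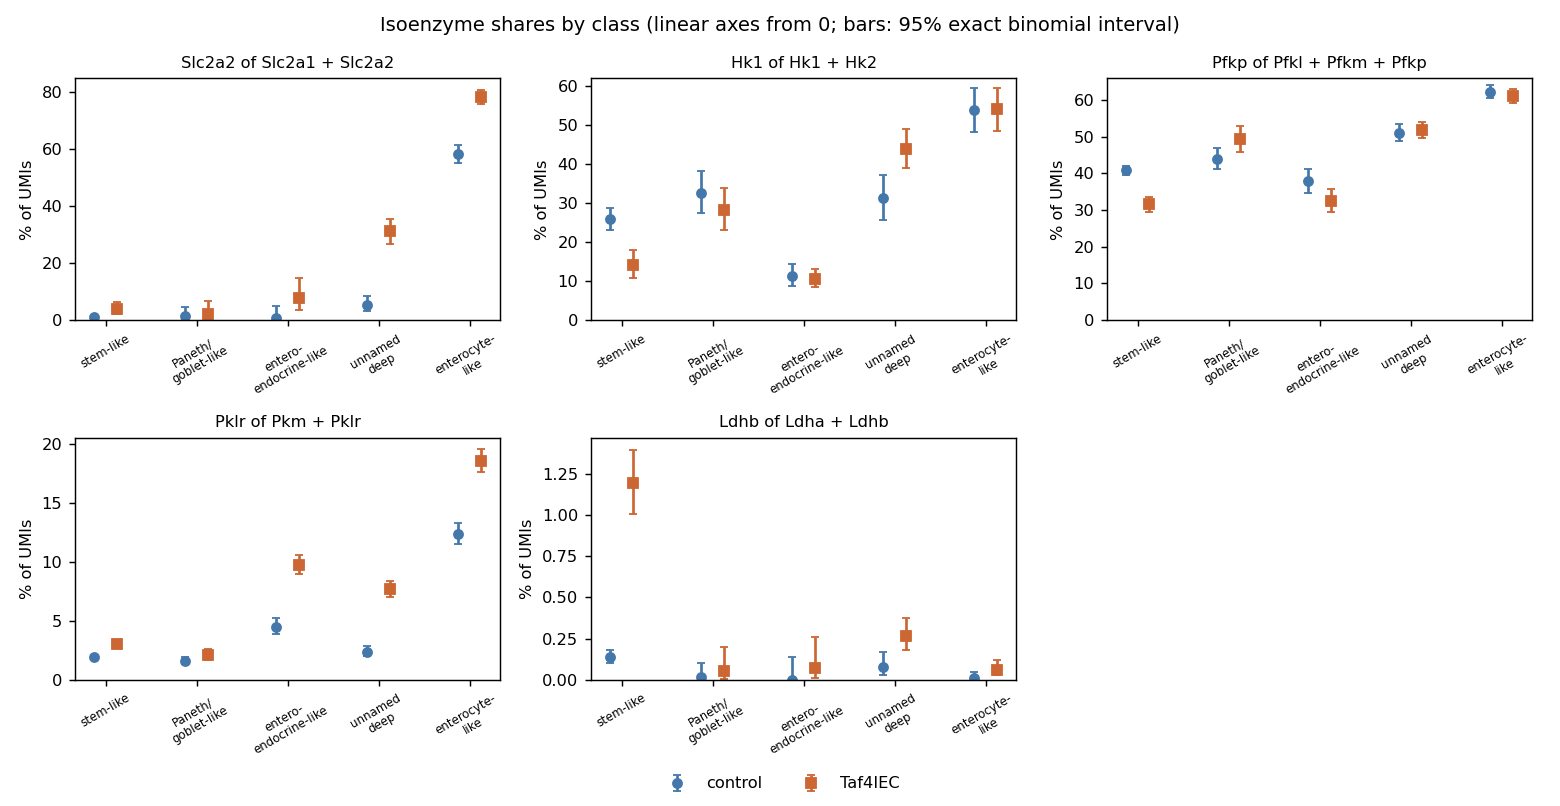
Share of 1 isoenzyme gene in the UMIs of its set (y axes, percent, linear from 0) by class of cells (x axes), control as circles and *Taf4*IEC as squares, with 95% exact binomial intervals. *Pklr* and *Slc2a2* shares are higher in the *Taf4*IEC library in enterocyte-like cells, while those of *Hk1* and *Pfkp* overlap there.

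The 3 steps without one of the 10 genes did not pass 1.5-fold either. *Gpi1*, phosphoglucose isomerase, was at 9.21 and 11.5 per 10000 over all cells (log2 0.33), *Tpi1*, triose phosphate isomerase, at 12.8 and 12.3 (log2 -0.05), and *Pgam1*, phosphoglycerate mutase, at 7.26 and 7.91 (log2 0.12). In enterocyte-like cells *Gpi1* was 2.65-fold and 2.43-fold and *Pgam1* 1.75-fold and 1.57-fold above stem-like cells of the same library, whereas *Tpi1* was 1.13-fold and 1.20-fold above.

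Lactate leaves the cell through MCT1 (*Slc16a1*) and MCT4 (*Slc16a3*). *Slc16a1* was at 0.282 and 0.299 per 10000 over all cells and *Slc16a3* at 0.728 and 0.793, log2 ratios of 0.08 and 0.12. *Slc2a3*, the neuronal transporter GLUT3, had 1 UMI in each library, and *Eno2*, the neuronal enolase, had 3 and 0. *Hk1* was at 0.164 and 0.238, *Hkdc1*, a further hexokinase, at 0.244 and 0.327, *Aldoc* at 0.828 and 0.954, *Pfkm* at 0.0784 and 0.086, and *Eno1b*, a near copy of *Eno1*, had 121 and 78 UMIs. None of these passed 1.5-fold with 200 UMIs.

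Of the 24 other glycolysis and transport genes, 22 were listed in the files and 17 had 200 UMIs, and 6 of them were at least 1.5-fold higher and 0 lower over all cells. Among them were *Slc2a2* (log2 1.41), the fructose transporter *Slc2a5* (0.89), *Slc5a1* (1.27), *Pklr* (1.38) and *Ldhb* (2.48). The median of the 17 was 0.41. Among all 10002 genes with 200 UMIs, 16.0% were higher and 7.47% lower over all cells, with a median of 0.16. In stem-like cells 14 genes of this list had 200 UMIs, of which 2 were higher, *Pklr* among them, and 2 lower (*Hk1*, *Slc16a3*), and in enterocyte-like cells 15 had, of which 3 were higher, *Slc5a1* and *Pklr* among them, and 0 lower. Over all genes 12.6% were higher and 6.12% lower in stem-like cells, and 6.14% and 5.36% in enterocyte-like cells.

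Of 11 genes that control glycolysis, among them the *Pfkfb* genes that set the phosphofructokinase activator and the *Pdk* genes that block pyruvate dehydrogenase, 7 had 200 UMIs and 0 passed 1.5-fold over all cells, whereas *Pdk3* was lower by this fold in stem-like and *Pfkfb3* higher in enteroendocrine-like cells. Of 8 genes of pyruvate entry into mitochondria, 2 were higher, the carrier subunit *Mpc1* (log2 0.63) and pyruvate carboxylase *Pcx* (0.94). The 5 genes of gluconeogenesis, the reverse path, had 3 with 200 UMIs, of which 2 were lower. These were *Fbp1*, fructose bisphosphatase, at 0.85 and 0.544 per 10000 (log2 -0.64), and *Pck2*, mitochondrial phosphoenolpyruvate carboxykinase, at 0.532 and 0.174 (log2 -1.61). Both were also past 1.5-fold lower in stem-like and in enterocyte-like cells, where *Fbp1* was at 6.12 and 2.62 per 10000. *Fbp2*, a further fructose bisphosphatase gene with more UMIs than *Fbp1*, was at 2.13 and 2.20 per 10000 over all cells (log2 0.05). In Paneth/goblet-like cells *Fbp2* and *Pck2* were lower by 1.5-fold. None of the 7 pentose phosphate genes passed 1.5-fold over all cells, whereas *Tkt* and *Taldo1* were lower by this fold in Paneth/goblet-like cells. Among all genes with 200 UMIs, 16.0% were higher and 7.47% lower over all cells by this fold. The share lower was 6.12% in stem-like, 5.36% in enterocyte-like and 9.20% in Paneth/goblet-like cells. In enteroendocrine-like cells 12.9% were higher.

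The HIF target and hypoxia list had 17 genes, all with 200 UMIs. Over all cells 1 of the 17 was higher, the oxygen sensor *Egln3* (log2 0.76), and 0 lower, beside 16.0% and 7.47% of all genes. In stem-like cells 3 of the 17 were lower (*Bnip3*, *Ankrd37*, *Ndrg1*), and in enterocyte-like cells 1 (*Ddit4*), beside 6.12% and 5.36% of all genes. The summed level of this list, like that of the 10 genes, was higher in enterocyte-like than in stem-like cells, at 52.1 and 19.1 per 10000 in the control and at 46.4 and 15.6 in *Taf4*IEC cells, 2.72-fold and 2.97-fold. Of 8 transcription factors known to act on glycolysis genes, 7 had 200 UMIs and none passed 1.5-fold over all cells. Among them *Myc* was at 0.297 and 0.258 per 10000, *Hif1a* at 0.34 and 0.423 and *Mlxipl*, which encodes ChREBP, at 0.532 and 0.762. Of 81 genes of the nuclear respiratory chain, 77 had 200 UMIs. Over all cells 2 of these were higher (*Cox7a1*, *Ndufa1*) and 0 lower, again beside 16.0% and 7.47% of all genes. In enterocyte-like over stem-like cells the summed level of the respiratory chain genes was 1.42-fold in the control and 1.29-fold in *Taf4*IEC cells, less than that of the 10 genes.

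To compare cells without clusters, cells of at least 5000 UMIs were thinned to 5000 and sorted by *Lgr5* and *Olfm4*, markers of crypt stem cells, and the 10 genes were then read from all UMIs of these cells. There were 476 control and 74 *Taf4*IEC cells with *Lgr5* and at least 2 *Olfm4* UMIs, and 356 and 134 with *Lgr5* and no *Olfm4* UMI. The summed level was 92.5 per 10000 in the first and 116 in the second gate of the control (log2 difference 0.33, 0.32 to 0.34) and 81.0 and 112 in *Taf4*IEC cells (0.47, 0.44 to 0.49). Cells with neither gene, 669 and 464, were at 153.8 and 168. In both libraries the level was lowest in cells with both markers and highest in cells with neither, of which 26.6% and 23.3% were enterocyte-like.

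*Pfkp* and *Slc2a1* differed by over 1.5-fold between the *Lgr5* gates in both libraries. *Pfkp* was at 1.01 per 10000 with and 1.52 without *Olfm4* in the control and at 0.45 and 1.03 in *Taf4*IEC cells. *Slc2a1* was at 0.374 and 0.576 in the control and at 0.232 and 0.456 in *Taf4*IEC cells. *Hk2* was 2.05-fold higher without *Olfm4* in the control (0.246 and 0.506), but not in *Taf4*IEC cells (0.498 and 0.52, log2 0.06, -0.27 to 0.40). *Eno1* differed least in *Taf4*IEC cells (log2 0.03, -0.07 to 0.12). The gates also differed in makeup, since 7.30% of control and 6.72% of *Taf4*IEC cells with *Lgr5* and no *Olfm4* were enteroendocrine-like and 23.3% and 20.1% Paneth/goblet-like. In the gate with both markers 0.63% and 1.35% were enteroendocrine-like. The unnamed deep cluster held 3.99% of control cells with both markers and 17.4% of those without *Olfm4*, and 0% and 16.4% of the *Taf4*IEC ones. The part of this makeup in the values was not tested. As too shallow, 575 control and 1053 *Taf4*IEC cells were left out.

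**Figure D5:**
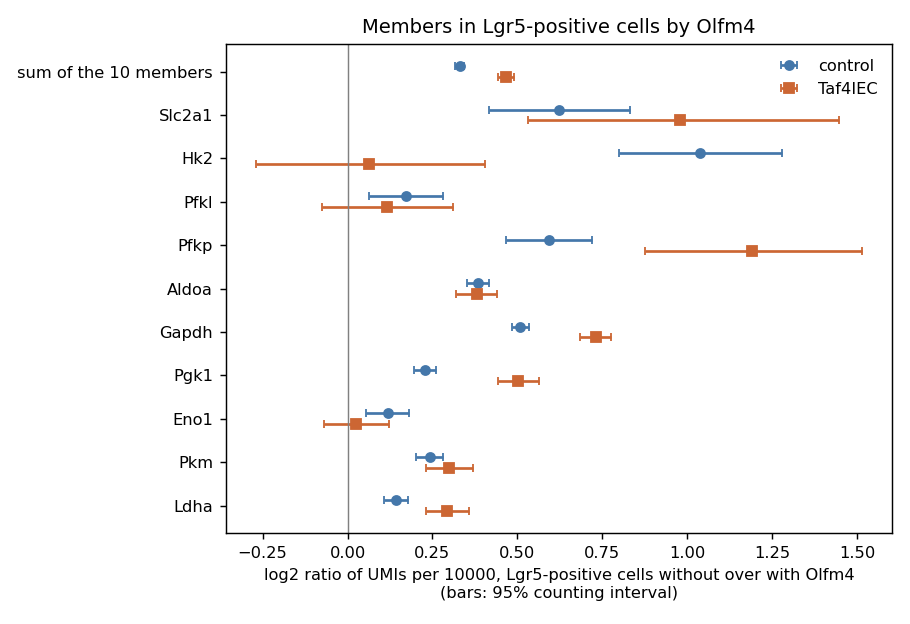
Log2 ratio of UMIs per 10000 between *Lgr5*-positive cells without and with *Olfm4* (x axis) for the sum and each of the 10 genes (y axis), control as circles and *Taf4*IEC as squares, with 95% counting intervals. The sum is above 0 in both libraries (0.33 and 0.47), and *Hk2* is at 1.04 in the control and 0.06 in *Taf4*IEC cells.

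Levels of the 10 genes across the clusters of at least 20 cells and a median of 2000 UMIs, 10 in the control and 7 in *Taf4*IEC cells, did not all follow each other. The mean of their standardised log2 levels had the highest lower r of the 2 libraries with *Aldoa* (Pearson r 0.94 and 0.96) and the lowest with *Hk2* (0.62 and 0.19), followed by *Pkm* (0.25 and 0.24). These r values are descriptions over few clusters that share a library, and each gene is itself part of the mean. Among 5579 genes outside the lists, *Rab17* (lower r 0.94), *Gys1* (0.94) and *Them4* (0.92) had the most similar pattern. *Gys1*, the glycogen synthase of most tissues, was at 0.342 per 10000 in enterocyte-like and 0.153 in stem-like control cells.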

How the data were processed

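Single-cell UMI counts of 1 control and 1 *Taf4*IEC enteroid library were analysed. The authors aligned reads to mm10 and counted UMIs with Cell Ranger 3.1 (per the submitters' processing notes and the study's methods) and removed cells outside 200 to 6000 genes or with 15% mitochondrial reads or more. The deposited values are these counts per gene and cell without normalization, and all cells meet the filter. The upper ends differ, however, since no control cell had more than 4999 genes, whereas *Taf4*IEC cells reached 5997. Whether control cells with more genes had been removed was not tested, nor was the part of this difference in the ratios. How reads shared by a gene and its pseudogenes or near copies (*Gapdh*, *Eno1* and *Eno1b*) were treated is not given in the sources used here. Levels are sums of UMIs per gene divided by the UMIs of all genes, times 10000, with exact 95% Poisson intervals for levels, exact conditional binomial intervals for log2 ratios and Clopper-Pearson intervals for shares (Python 3.11.15, numpy 2.4.6, scipy 1.17.1, pandas 2.3.3). A gene was called at 1.5-fold with at least 200 UMIs over the cells compared. No test was run, since each condition had 1 library. Depths were 39947009 and 24990128 UMIs.

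Each library was clustered alone in R 4.3.3 with Seurat 5.3.0 (LogNormalize, 2000 variable genes, 20 principal components, resolution 0.9, UMI count and mitochondrial percent regressed out), with 67 pathway genes left out of the variable genes. Clusters were named by the class that had most markers present, and needed 3 or more. A marker was present from 10 UMIs and 1.5 times its mean over the 2 libraries. Clusters also stayed unnamed if more of their 10 leading genes were markers of another class. The same held if none was a marker of their own class and either a low-quality transcript led or the cluster was shallow. An enteroendocrine-like cluster of 40 control cells (median 881.5 UMIs) and 1 of 77 *Taf4*IEC cells (median 978) were named, though *Gm42418* and *AY036118* were among their leading genes. Unnamed clusters were called deep from a median of 5000 UMIs. These classes are rebuilt and can differ from those of the study. Predicted doublets (Scrublet in scanpy 1.11.5, 10 control and 0 *Taf4*IEC cells) were kept. The intervals of levels and ratios were tested on simulated counts, and the thinning was checked on the cells themselves. Clustering, naming, gates, shares, likeness and motif counts were not tested on simulated data.

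The 10 genes, all other lists, the marker lists and the naming rule were chosen with earlier results of these data known. Named genes were the 10, their isoenzyme partners, the steps without one of the 10, lactate export, and every other list gene with 200 UMIs past 1.5-fold over all cells. Some genes that this rule names are not reported here. Genes past 1.5-fold within a class, *Myc*, *Hif1a* and *Mlxipl*, and those that describe clusters or likeness, were named after their values were seen. Likeness used log2(UMIs per 10000 + 0.1) of genes with at least 1000 UMIs. Cells were thinned to 5000 UMIs for the *Lgr5* and *Olfm4* gates. Alternatives changed the total, the cells, the clustering, the naming and the fold.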

Additional observations from a re-analysis of the deposited data

Results flagged for a closer look

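In stem-like and enterocyte-like cells the log2 ratio, *Taf4*IEC over control, lay on opposite sides of 0, with both counting intervals leaving 0 out, for the sum of the 10 genes and for 2 single genes. The sum was at -0.06 in stem-like and 0.04 in enterocyte-like cells, a difference of 0.10. *Pgk1* was at -0.20 (-0.22 to -0.17) and 0.13 (0.09 to 0.17), a difference of 0.33. *Ldha* was at -0.11 (-0.14 to -0.08) and 0.04 (0.01 to 0.08), a difference of 0.15. With 1 library per condition these differences were not tested, and all are under 1.5-fold. The signs of the summed ratios changed in some alternatives, given under the dependence on processing. With the reduced total the summed ratio was -0.17 in stem-like and -0.05 in enterocyte-like cells, on the same side of 0. *Pgk1* and *Ldha* were not recomputed within classes. A change of the total shifts every ratio within a class by the same amount, here the sum from 0.04 to -0.05 in enterocyte-like cells. *Ldha*, at 0.04 there, thus falls below 0 in both classes with the reduced total. *Pgk1*, at 0.13 there, stays on opposite sides of 0. Whether the opposite signs hold in the other alternatives was not tested.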

How the results depend on the processing

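No paired analysis was possible because each condition had 1 library, and for the same reason none was left out. Counting intervals cover none of the variation between cultures or mice, and the *Taf4*IEC library had far fewer UMIs per cell. All log2 values below are *Taf4*IEC over control unless said otherwise. The 4 values of the 10 genes past 1.5-fold (*Hk2* over all cells and in Paneth/goblet-like cells, *Pfkp* in stem-like and *Slc2a1* in enterocyte-like cells) changed sign in none of the alternatives run for them. Other ratios of single genes of the 10 within classes, and single genes outside the 10, were not recomputed. The cause of the changes below was not tested. Leaving *Gapdh* out and, within classes, the reduced total were chosen after seeing the data.

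The summed ratio over all cells (0.25) was 0.07 without mitochondrial, ribosomal protein, *Gm42418* and *AY036118* genes in the total, 0.02 as a mean of per-cell values, 0.26 in cells of at least 2000 UMIs, 0.15 in cells thinned to 2000, 0.14 without the 5% of cells with the most UMIs, 0.10 minus the median of all genes, 0.03 with the class shares of the control and 0.09 without *Gapdh*. At a fold of 2, 0 of the 10 genes were past it.

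The log2 difference between enterocyte-like and stem-like cells (1.18 for control, 1.28 for *Taf4*IEC cells) was 1.27 and 1.25 with the pathway genes kept, 1.21 and 1.44 with 10 components, 1.24 and 1.32 with both libraries clustered together, 1.22 and 1.55 with markers counted from 2 times, 1.59 and 1.59 with cells classed by their own markers, 0.69 and 0.74 without *Gapdh*, and 0.91 and 1.03 with the reduced total. In the control it was 1.25 at resolution 1.4 and 1.22 with markers judged against the rest of the library. In the *Taf4*IEC library it was 1.41 at resolution 0.5, 1.26 with 30 components and 1.45 without regression. The *Taf4*IEC stem-like class held 427 cells in the main setting. It held 33 with markers from 2 times, 67 clustered together and 82 without regression, so stem-like values under these settings are of a much smaller class.

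The summed ratio in stem-like cells (-0.06) was 0.01 with the pathway genes kept, -0.18 and -0.03 at resolutions 0.5 and 1.4, -0.20 and -0.04 with 10 and 30 components, -0.28 without regression, -0.15 with both libraries clustered together, -0.29 with markers from 2 times, -0.02 with markers judged against the rest, 0.00 by own markers, -0.09 without *Gapdh* and -0.17 with the reduced total. In enterocyte-like cells (0.04) these were -0.02 with the pathway genes kept, -0.01 at resolution 1.4, -0.01 without regression, -0.08 clustered together, 0.00 by own markers, -0.03 without *Gapdh* and -0.05 with the reduced total. In Paneth/goblet-like cells (0.05) they were 0.12, 0.13, 0.16, 0.11, 0.28, -0.05 and -0.20 in the same order, with 0.03 and -0.01 for 10 and 30 components. In enteroendocrine-like cells (0.14) they were 0.04 at resolution 1.4, 0.18 with 30 components, 0.11 with no condition on leading genes, 0.09 by own markers, 0.04 without *Gapdh* and -0.09 with the reduced total. With gates set at 2000 UMIs the difference between *Lgr5* cells without and with *Olfm4* was 0.43 for control and 0.56 for *Taf4*IEC cells.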
